A study of Mus musculus with 15 samples.

Results

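The genes described here encode subunits of the complexes that methylate lysine 4 of histone H3 (H3K4) and enzymes that take this methylation off again. The 9 genes were chosen by name, as listed subunits of the Mll/Set1 methyltransferase complexes (Wdr5, Ash2l, Rbbp5, Dpy30, Ncoa6, Paxip1) and listed H3K4 demethylases (Kdm1a, Kdm5a, Kdm5b), out of 22342 protein-coding genes in the mm9 annotation. The rule itself uses no measured value. For each gene, every listed region in the gene body and in 20 kb on both sides was taken from 9 ChIP-seq lists.

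Of the lists, 8 come from 1 cell line. αTN4 is a mouse lens epithelial line transformed by the SV40 T antigen, and both groups were stable populations infected with a lentivirus carrying an shRNA and selected as pools with puromycin. The control group carried a control shRNA and was profiled for Pax6, RNA polymerase II (Pol2), H3K4me1, H3K4me2 and H3K4me3. The Pax6 knockdown group, called KD below, carried an shRNA against Pax6 and was profiled for the 3 methylation marks. The lists of regions give no level of Pax6 itself, so the knockdown was not checked here. The remaining list is H3K4me2 in whole newborn lens of CD-1 mice at P1, age 1 day. Each list comes from 1 labelled library, although peak names in the control H3K4me2 list may point to pooled replicates. So no difference between conditions can be tested, and a difference between 2 libraries may come from the libraries. In whole lens, fewer cells of a type and less mark per cell cannot be told apart.

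H3K4 carries 1, 2 or 3 methyl groups, written by SET domain enzymes of the Mll and Set1 families. H3K4me3 marks active promoters, H3K4me1 marks enhancers and the flanks of promoters, and H3K4me2 is found at both. All of these enzymes work on a shared core of Wdr5, Rbbp5, Ash2l and Dpy30, known as WRAD. Wdr5 is a WD40 repeat scaffold, Rbbp5 and Ash2l together activate the SET domain, and Dpy30 binds Ash2l. Ncoa6 and Paxip1 (also called Ptip) belong only to the Mll3 and Mll4 complexes, the main writers of H3K4me1 at enhancers. Kdm1a (Lsd1) removes methyl groups from H3K4me1 and H3K4me2, while Kdm5a and Kdm5b remove them from H3K4me2 and H3K4me3. The series compares these marks in lens cells with and without a full level of the eye transcription factor Pax6, and the question here is what the genes of the writing and removing machinery themselves carried.

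In control cells, all 9 genes carried Pol2, H3K4me2 and H3K4me3 at a promoter, against 48.0%, 58.2% and 49.1% of all protein-coding genes. All 9 kept both marks in KD cells, where 57.1% of all genes had H3K4me2 and 47.8% had H3K4me3. All 9 also had H3K4me2 in lens, against 66.8% of all genes. No window held a Pax6 peak, against 2.09% of the windows of all genes. H3K4me1 was the mark that differed: 25 islands lay in the 9 windows in control cells and 4 in KD cells. The whole H3K4me1 list was also shorter in KD cells, with 18417 islands against 38007 in control cells.

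Where a gene had several annotated starts, the marks picked out 1 place. The start nearest to the summit of the strongest H3K4me3 promoter peak of control cells is called the marked start. At Ash2l it lay 6.92 kb inside the gene record, and at Dpy30 7.55 kb inside it. The 200 bases before the marked start and before the unmarked 5′-most start of both genes are printed here because they show how marked and unmarked starts differed in CpG content. They come from the mm9 genome, on the strand of the gene, with each CpG in capitals.
Ash2l, marked start (chr8:26951252-26951451, minus strand): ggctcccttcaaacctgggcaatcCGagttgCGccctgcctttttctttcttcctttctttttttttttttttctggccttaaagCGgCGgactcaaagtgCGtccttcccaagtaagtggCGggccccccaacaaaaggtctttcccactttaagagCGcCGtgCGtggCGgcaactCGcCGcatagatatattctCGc
Ash2l, unmarked start (chr8:26958167-26958366, minus strand): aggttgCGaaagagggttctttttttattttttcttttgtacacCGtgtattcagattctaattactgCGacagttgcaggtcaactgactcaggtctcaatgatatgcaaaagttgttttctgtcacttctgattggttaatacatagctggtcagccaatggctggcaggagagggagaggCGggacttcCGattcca
Dpy30, marked start (chr17:74715735-74715934, minus strand): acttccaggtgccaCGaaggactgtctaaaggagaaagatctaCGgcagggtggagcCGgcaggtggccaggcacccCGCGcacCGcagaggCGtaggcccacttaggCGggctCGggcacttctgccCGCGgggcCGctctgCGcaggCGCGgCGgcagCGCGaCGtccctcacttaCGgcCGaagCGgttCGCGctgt
Dpy30, unmarked start (chr17:74723285-74723484, minus strand): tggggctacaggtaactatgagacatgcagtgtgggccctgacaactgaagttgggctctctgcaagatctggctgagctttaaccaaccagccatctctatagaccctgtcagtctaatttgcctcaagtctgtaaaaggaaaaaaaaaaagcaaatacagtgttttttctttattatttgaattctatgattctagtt
The marked Ash2l stretch held 13 CpGs and the unmarked one 5. For Dpy30 the counts were 24 and 0. None of the 4 stretches overlaps an annotated coding-transcript exon. The unmarked Ash2l and Dpy30 starts had no region of any of the 9 lists within 2 kb. The same was true of the internal Ncoa6 starts 33.0 kb downstream of its marked start and of the internal Kdm1a starts 25.2 and 33.7 kb downstream. The second Wdr5 start, 4.60 kb downstream, lay inside an H3K4me1 island of control cells and within 2 kb of no other region.

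CpG content was computed over 300 bases (250 before to 50 after each start) as the observed over the expected number of CpGs. The marked starts of the 9 genes ran from 0.784 at Kdm5b to 1.14 at Kdm5a, with a median of 0.942. The median was 0.816 over the 10968 genes with H3K4me3 at the promoter and 0.246 over the 11374 genes without. Of the unmarked starts with no H3K4me3 within 2 kb, Ash2l had 0.425, Kdm1a 0.134 and 0.213, Ncoa6 0.0987 and 0.103, Dpy30 0.0810 and Wdr5 0. Every member start with H3K4me3 nearby was thus above every one without, the lowest being an Ash2l start at 0.543.

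**Figure D1:**
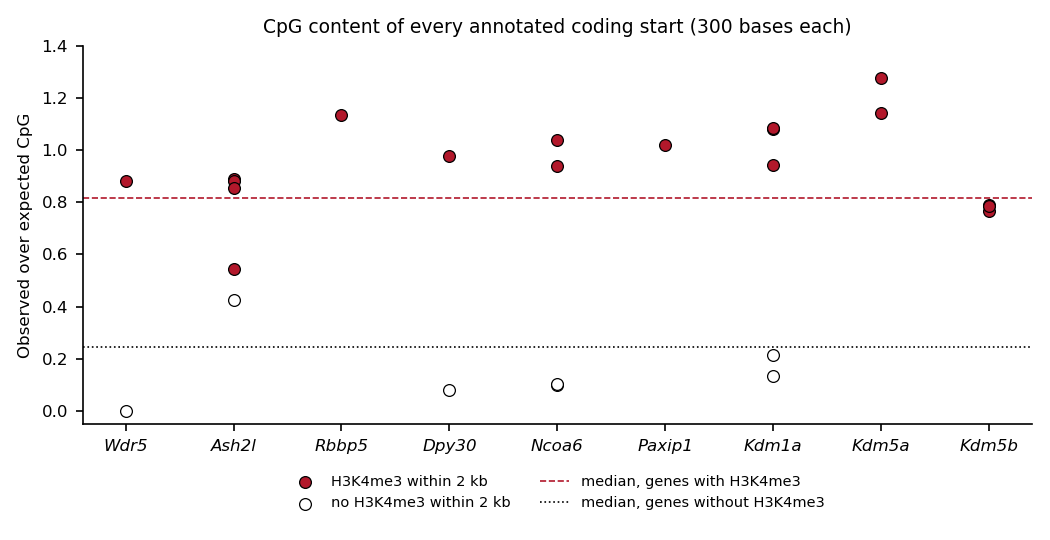
Observed over expected CpG in 300 bases at every annotated coding start of the 9 genes, filled where an H3K4me3 peak of control cells lay within 2 kb and open where none did. Lines show the medians of all protein-coding genes with (0.816) and without (0.246) H3K4me3 at the promoter, and the open points all lie at 0.425 or lower.

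The promoters were searched on both strands, over the same 300 bases, for short binding words. GGGCGG, bound by Sp and Klf proteins, was found in 5 of the 9 promoters (Wdr5, Ncoa6, Paxip1, Kdm1a and Kdm5b), against 69.9% of promoters with H3K4me3 and 45.9% of all promoters. Kdm1a held 5 copies between 67 and 198 bases before its start. The NF-Y word CCAAT was in none of the 9 and in 36.4% of all promoters. The Ets word CCGGAAGT was likewise absent from the 9, with 4.91% of all promoters holding it. The NRF1 word GCATGCGC, held by 3.17% of all promoters, and the YY1 word AAGATGGCG, held by 2.19%, were also found in none. The same was true of the AP-1 word TGANTCA, held by 6.63% of all promoters, and of the TATA box word TATAAA, held by 12.8%. Among promoters with H3K4me3, the class of all 9 genes, 3.75% held the AP-1 word and 5.17% the TATA box word. In that class 35.9% held CCAAT, 9.17% the Ets word, 5.46% the NRF1 word and 4.04% the YY1 word. Each word was searched on its own, no word contains another, and a missing word says only that these letters are not in this window.

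The core subunits were described first. Wdr5 lies at chr2:27370677-27392055 on the plus strand. Its promoter Pol2 peak, 791 bp wide, had a fold of 20.3 and ranked at percentile 85.2 when all Pol2 peaks are ordered by fold. Folds are the authors' enrichment over background. Since depth and background differ between libraries, folds of different libraries are printed as values only and comparisons between libraries rest on percentiles within a list. The H3K4me3 peak was 1627 bp wide with fold 23.4 in control and 2014 bp wide with fold 28 in KD cells, which took it from percentile 66.4 to 95.9. Of 10619 genes with promoter H3K4me3 in both lists, 0.932% were higher in KD cells by as many percentile points. Ranked by the −log10 of the q-value in place of fold, the same peaks were at percentiles 88.2 and 95.1, so the size of the difference depends on the measure of strength. H3K4me2 was at percentile 93.3 in control cells, 98.7 in KD cells and 99.8 in lens, the highest of the 9 genes in both the KD and the lens list. By the −log10 q ranking it was at 98.7 in control and 98.6 in KD cells. The strongest peak lay at 947 bp from the marked start in control and at -642 bp in KD cells.

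Ash2l (chr8:26926663-26958166, minus strand) had its Pol2 peak at percentile 91.2 and fold 24.2. The marked start and 3 further starts within 0.702 kb of it shared a single H3K4me3 peak of 1801 bp in control and 1802 bp in KD cells. That peak was at percentile 46.5 in control cells, where only Ncoa6 was lower among the 9, and at 55.5, the median of the 9, in KD cells. H3K4me2 formed 2 peaks in the cells and 3 in lens, the strongest at percentile 91.7 in control, 90.6 in KD and 80.9 in lens.

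Rbbp5 (chr1:134373944-134402242, plus strand) had the highest H3K4me3 percentile of the 9 in control cells, 90.6 with fold 35.1, and 84.7 in KD cells. Its Pol2 peak was more modest, at percentile 59.6. The lincRNA 6030442K20Rik starts at -322 bp on the other strand, so the Pol2 and methylation peaks there belong to a shared stretch and cannot be given to one of the 2 genes. H3K4me2 was at percentile 96.5 in control, 95 in KD and 90.6 in lens.

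Dpy30 (chr17:74698814-74723284, minus strand) carried Pol2 at percentile 91.8. Its H3K4me3 peak kept its width, 1549 bp in control and 1563 bp in KD cells, and went from percentile 72.1 to 90.4. A difference as large was seen in 3.80% of the 10619 genes, and by the −log10 q ranking it went from 73.8 to 89.0. Its H3K4me2 went from percentile 85.1 to 94.6 and was at 79.4 in lens. Wdr5 and Dpy30 were thus the 2 members whose H3K4me3 peak gained most in rank by fold. By the −log10 q ranking Ash2l, which went from 45 to 53.9, gained more than Wdr5, and there is no replicate to set this against.

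The 2 Mll3/4 subunits had a similar layout. Ncoa6 (chr2:155216401-155299630, minus strand) is a nuclear receptor coactivator. Its H3K4me3 was split into 2 peaks with summits on both sides of the start, of which the stronger had 805 bp and percentile 46 in control cells and 797 bp and percentile 48.9 in KD cells, so width and rank were close in both. H3K4me2 reached percentile 97.5 in control cells, the highest of the 9 there, and 95.2 in KD cells. In lens it was at 83, a change of -14.5 percentile points from control cells, and 10.5% of the 12309 genes with the mark in both lists were lower by as much.

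Paxip1 (chr5:28067207-28117879, minus strand) codes for a BRCT domain protein. It had the strongest Pol2 peak of the 9, fold 35.5 at percentile 97.9. H3K4me3 again formed 2 peaks, the stronger at percentile 58.5 in control and 50.7 in KD cells. H3K4me2 was at 79.2 in control, 81.6 in KD and 85.8 in lens. Pol2 thus ranked well above H3K4me3 at this gene, whereas at Rbbp5 it ranked below.

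Among the demethylases, Kdm1a (chr4:136106455-136158638, minus strand) had the lowest Pol2 percentile of the 9 genes. Its Pol2 peak was 254 bp wide with fold 6.85 at percentile 35.1, and its summit lay at -427 bp from the marked start, near 2 further annotated starts at -0.379 and -0.415 kb. H3K4me3 covered 895 bp at percentile 62.7 in control and 990 bp at 54.3 in KD cells, with the summit downstream of the marked start. H3K4me2 was at percentile 68 in control, 70.8 in KD and 73.5 in lens, the lowest of the 9 in control cells.

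Kdm5a (chr6:120314117-120394592, plus strand) had the widest H3K4me3 peak of the group, 2666 bp at percentile 85.1. In KD cells the list held 2 peaks of 855 and 1748 bp in its place, covering 2603 of the 4 kb around the start against 2666 in control cells, and the stronger was at percentile 90.7. The covered length thus hardly differed although the number of peaks did. A coding start of Ccdc77 on the other strand lies 232 bp inside Kdm5a, so these peaks are shared by both genes. H3K4me2 was at percentile 95.7 in control, 96.4 in KD and 95.8 in lens.

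Kdm5b (chr1:136456748-136529454, plus strand) was the gene whose promoter H3K4me2 differed most in rank by fold. A single peak of 2627 bp with fold 13.2 in control cells was replaced in KD cells by 3 peaks, of which the widest had 1448 bp and fold 8.72. The strongest peak went from percentile 75 to 57.7, and 3.38% of the 12661 genes with the mark in both lists were lower by as much. By the −log10 q ranking it went from 72.7 to 64.1. In lens, the promoter had a single peak of 3751 bp at percentile 70.9. H3K4me3 was at percentile 53.3 in control and 48.3 in KD cells.

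**Figure D2:**
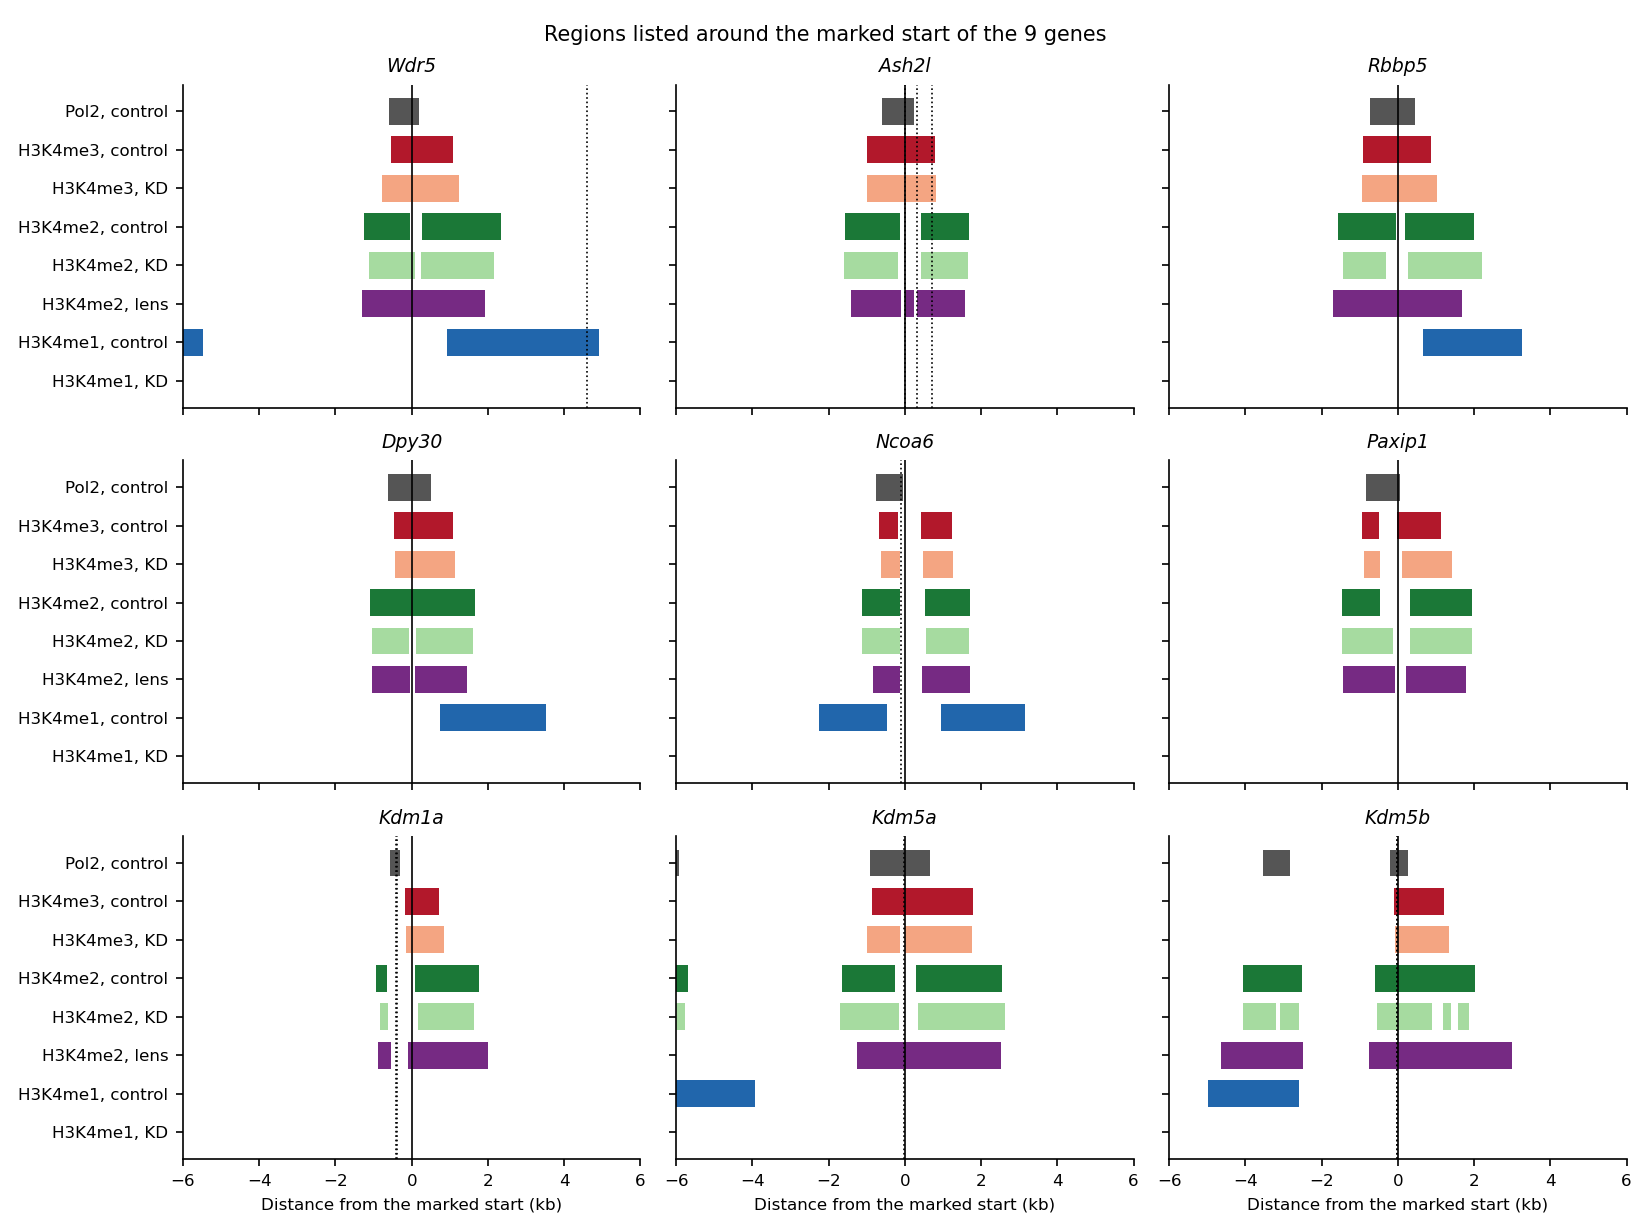
Listed regions within 6 kb of the marked start of each gene, read in the direction of transcription, with 1 row per library (the solid line is the marked start, dotted lines are other annotated coding starts). Promoter Pol2 and H3K4me3 lie on or beside the start, and H3K4me2 reaches further out. Pol2 is also listed at -3.3 kb of Kdm5b and at the edge of the Kdm5a panel. The H3K4me1 islands of control cells partly overlap H3K4me2 and reach beyond it, and the row for H3K4me1 in KD cells is empty at all 9 genes.

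Counted over the group, Pol2 was present at 9 of 9 promoters, where a promoter is the stretch within 2 kb of any coding start of the gene, against 48.0% of all protein-coding genes. H3K4me3 was present at 9 of 9 in control cells (49.1% of all genes) and 9 of 9 in KD cells (47.8%). For H3K4me2 the count was 9 of 9 in control (58.2%), KD (57.1%) and lens (66.8%). With only the 5′-most start of each gene record, each of these counts was 7 of 9, since Ash2l and Dpy30 were then missed. Percentiles of the strongest promoter peak ran from 35.1 to 97.9 for Pol2, from 46 to 90.6 for H3K4me3 and from 68 to 97.5 for H3K4me2 in control cells. These percentiles rank a promoter peak among all peaks of its list. Over all genes with the mark at the promoter, the median of the same value was 70.6 for Pol2, 66.8 for H3K4me3 and 87.7 for H3K4me2 in control cells. Of the 9 genes, 6 lay above that median for Pol2, 3 for H3K4me3 and 5 for H3K4me2.

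**Figure D3:**
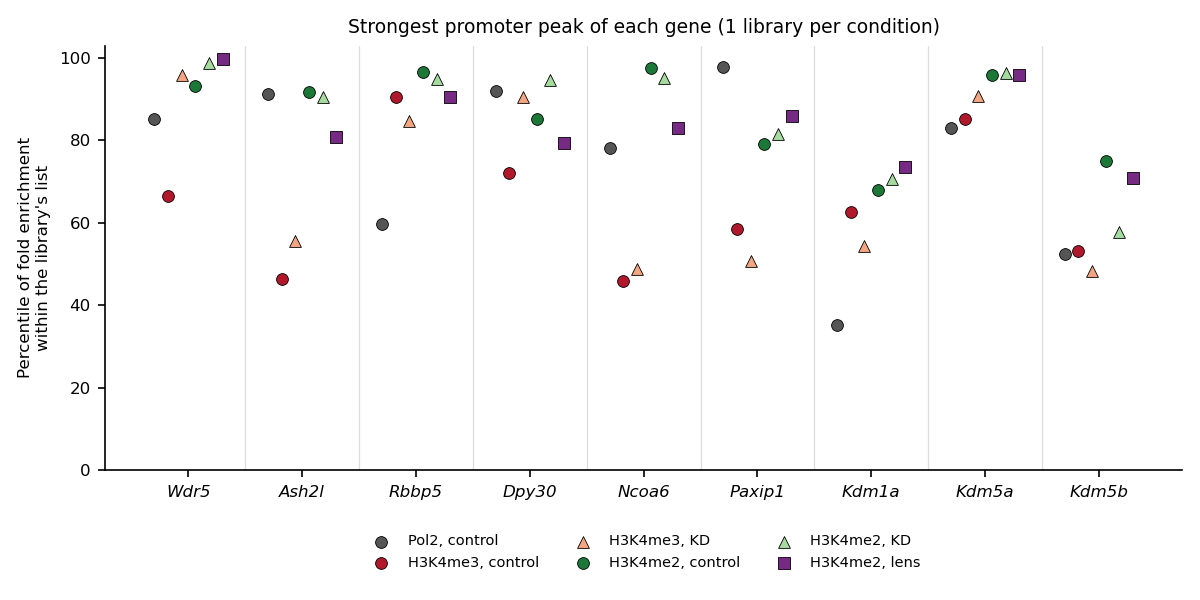
Percentile by fold enrichment, within the list of each library, of the strongest promoter peak of each gene (circles are control cells, triangles KD cells, squares newborn lens). The H3K4me3 percentile of Wdr5 goes from 66.4 to 95.9 and that of Dpy30 from 72.1 to 90.4 between control and KD cells, and the H3K4me2 percentile of Kdm5b from 75 to 57.7.

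The change in rank between control and KD cells had no common direction. For H3K4me3 it was positive in 5 and negative in 4 genes, with a median of 2.92 percentile points and a range from -8.35 to 29.5. Over 10619 genes the median was -1.68, with quartiles at -8.71 and 4.12. For H3K4me2 it was also positive in 5 and negative in 4 genes, with a median of 0.614 against -0.989 over 12661 genes. Ranked by −log10 q, the medians of the 9 genes were -1.92 for H3K4me3 and -0.323 for H3K4me2, so even the sign of the middle value depends on the measure.

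At 7 of the 9 promoters the summit of the Pol2 peak lay inside an H3K4me2 peak in control cells, and at Rbbp5 and Kdm1a it lay in a gap of 241 and 725 bp between 2 such peaks. Gaps of this kind were present at 24.9% of 10719 genes with promoter Pol2. Of the 7 promoters with a covered summit, Dpy30 and Kdm5b had 1 H3K4me2 peak in control cells. Wdr5, Ash2l, Ncoa6, Paxip1 and Kdm5a had 2 peaks with a stretch between them, and the summit lay inside 1 of these. KD cells and lens have no Pol2 list, so the Pol2 summit of control cells was used there as well. Around it, the gap in KD cells was 564 bp at Rbbp5 and 769 bp at Kdm1a. Kdm5a showed one of 514 bp, and such gaps were present at 32.9% of genes. Its downstream H3K4me2 peak began at chr6:120314432 in control and at chr6:120314493 in KD cells. The Pol2 summit, 313 bp from the marked start, lay between these positions, so the difference at Kdm5a rests on a peak edge. In the lens list a gap of 433 bp lay around the control summit at Kdm1a, against 4.42% of genes.

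H3K4me1 was found at fewer of these promoters. In control cells, 4 of 9 genes (Wdr5, Rbbp5, Dpy30 and Ncoa6) had an island at the promoter, against 36.0% of all genes, and in KD cells 0 of 9 did, against 16.8%. The islands did not cover the marked start. Their centres lay 2923 bp from it at Wdr5, 1956 bp at Rbbp5, 2134 bp at Dpy30, and -1.36 and 2.04 kb at Ncoa6. The Wdr5 island covered the unmarked Wdr5 start further downstream. The islands held 80 ChIP reads at Wdr5, 64 at Rbbp5, 47 at Dpy30, and 33 and 41 at Ncoa6. No KD island overlapped any of the 5. Both promoter H3K4me2 and H3K4me3 peaks were kept at each of these 4 genes.

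Over the whole windows, the length covered by H3K4me1 islands was at least 2-fold lower in KD cells for 8 of the 9 genes, against 54.4% of the 14155 genes with an island in the control window and 52.9% of the 9082 such genes that also had H3K4me3 at the promoter. Wdr5 had 16655 bp in control and 6400 bp in KD cells. Dpy30, the exception, had 15671 and 9284 bp. Ncoa6 had 12200 and 1400 bp. In the windows of Ash2l, Rbbp5, Paxip1, Kdm1a, Kdm5a and Kdm5b the KD list held no island at all. Control cells had 2800, 2600, 3000, 2000, 4800 and 2400 bp there. The islands of all 9 windows covered 62.1 kb in control and 17.1 kb in KD cells, or 27.5%, while the whole KD list covered 65.1% of the length of the control list. For the other marks, no member was lower by 2-fold or more: H3K4me2 kept between 67.0% at Kdm5b and 113% at Paxip1 of its covered length (4.07% of all genes were lower by 2-fold), and H3K4me3 between 95.1% at Ncoa6 and 118% at Wdr5 (3.64% of all genes).

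**Figure D4:**
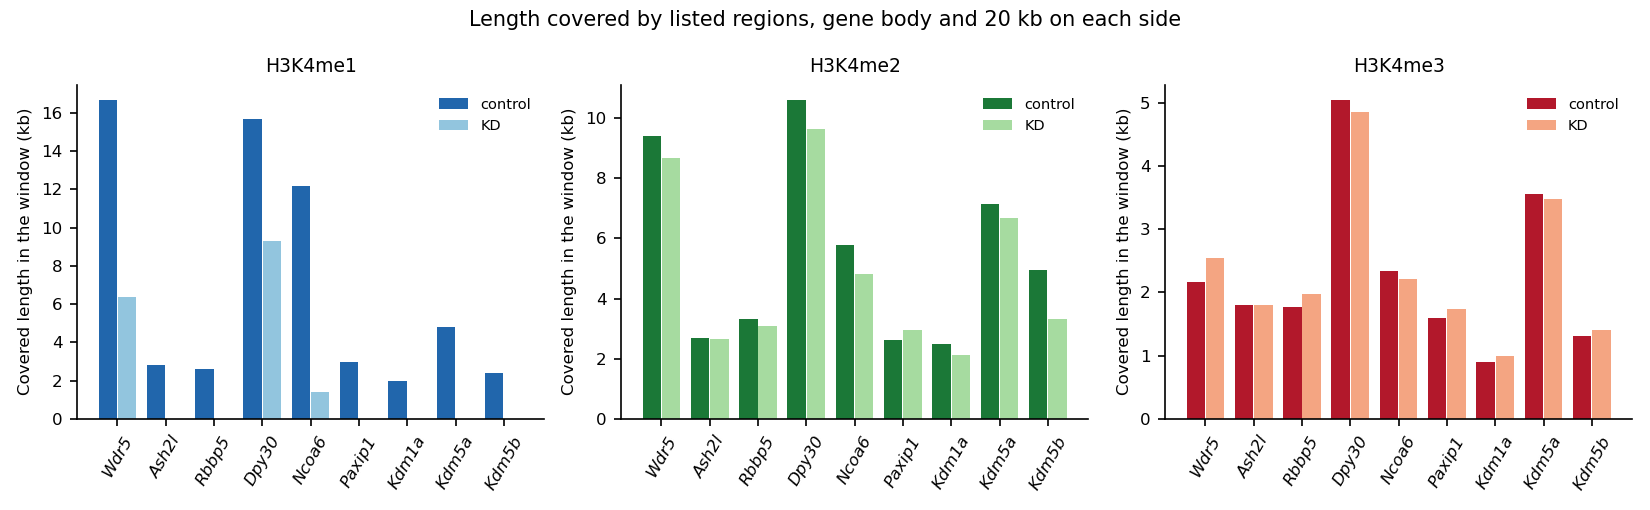
Length covered by listed regions in the gene body and 20 kb on each side, in control and KD cells, for H3K4me1, H3K4me2 and H3K4me3. H3K4me1 is 0 in KD cells at 6 genes and remains at Wdr5 (6400 bp), Dpy30 (9284 bp) and Ncoa6 (1400 bp). The H3K4me3 bars of both groups are close to each other, and the H3K4me2 bars differ most at Kdm5b (4939 bp in control and 3309 bp in KD cells).

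Counted as regions, 5 of 25 control H3K4me1 islands in the windows were overlapped by a KD island (20%, 95% Wilson interval 8.86 to 39.1%), against 46.2% of all 38007 control islands. With windows of 50 kb on both sides it was 14 of 40, or 35%. By place, none of the 5 islands at a member's own promoter was kept, 4 of 8 at the promoter of a neighbouring gene were, and 1 of 12 distal ones was. Over the whole list, 42.6% of islands at promoters and 47.4% of distal islands were kept. The intervals cover counting error only and treat islands as independent. The number of ChIP reads per island moved with this result. Of the 25 islands, 11 held at most 40 ChIP reads and 9 held 41 to 60, classes in which 14.1% and 25.8% of all control islands were kept. The members kept 3 of 11 and 0 of 9 in these classes, 0 of 3 among islands of 61 to 100 reads (56.3% of all) and 2 of 2 above 100 reads (91.6% of all). The part of island strength in the lower share was not tested. The lists give no read totals. From the input density (reads per kb) in 13763 islands with a single partner, and from the scaling in the authors' fold, the KD ChIP library was estimated at 1.09 times the control ChIP library, which is an indirect value.

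**Figure D5:**
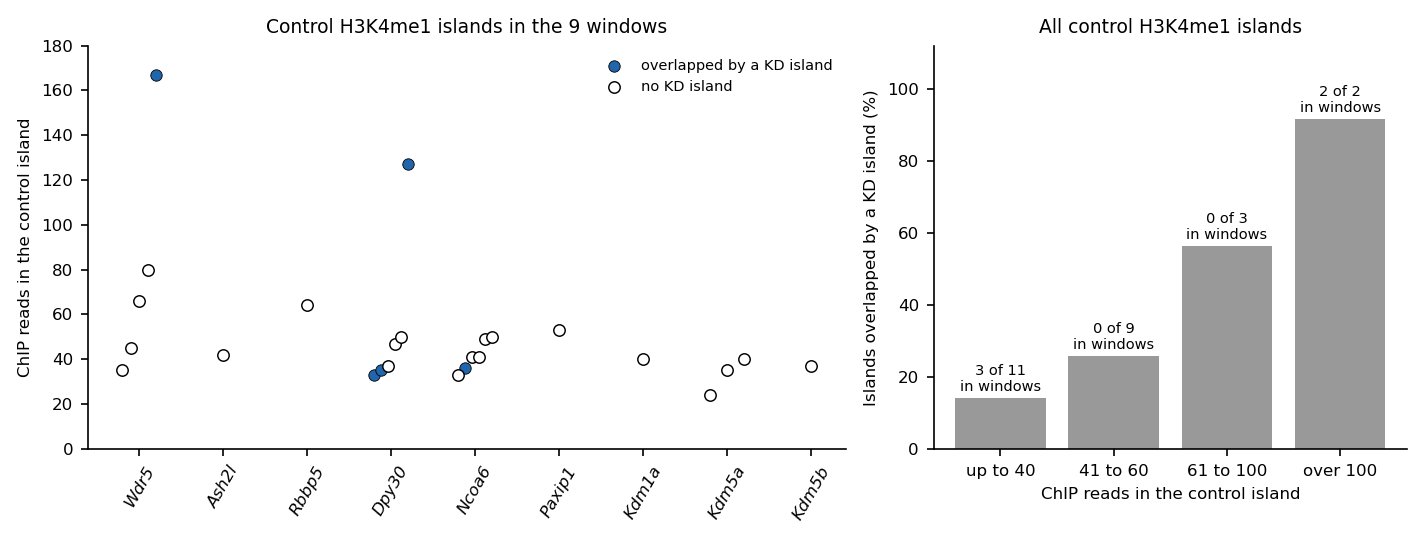
Left, ChIP reads in each of the 25 control H3K4me1 islands of the 9 windows, filled where a KD island overlapped. Right, the share of all control islands overlapped by a KD island, by number of ChIP reads, with the counts for the windows above the bars, showing 2 of 2 member islands kept above 100 reads and 3 of 23 below.

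All 5 kept islands lay at or in neighbours of the members, and none in a member gene. Many islands without a KD partner lay outside the member genes too. Among them were the only islands of the Ash2l, Paxip1 and Kdm5b windows and all those of the Kdm5a window. The largest, with 167 ChIP reads, covered the start of Brd3, a bromodomain gene on the other strand, at -7495 bp from the Wdr5 start. The next, with 127 reads, lay in Memo1 beside its start, 21.5 kb beyond the marked start of Dpy30. The others were at Spast (2 islands of 35 and 33 reads joined into 1 KD island of 59 reads) and at Trp53inp2 (36 reads), downstream of Ncoa6. Read density was compared as ChIP reads per kb in KD over control cells, on the log2 scale, less the median of the same ratio over the islands kept in the whole list. It was 0.33 at Brd3, 0.05 at Memo1, -0.14 and -0.20 at Spast, and 0.98 at Trp53inp2. The values were thus above the median change at Brd3, Memo1 and Trp53inp2 and below it at Spast, differences that could not be tested. They also depend on island widths as called. At Trp53inp2, 36 reads over 2000 bp in control stood against 40 over 1400 bp in KD cells. Both Spast islands were set against the same KD island of 4600 bp. A further control island at Trp53inp2, with 41 reads, had no KD partner.

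All 18 control H3K4me3 peaks in the windows had a KD peak (100%, Wilson interval 82.4 to 100%, against 89.9% of the list), as did 36 of 41 H3K4me2 peaks (87.8%, interval 74.5 to 94.7%, against 82.5%). The 5 H3K4me2 peaks without a KD partner had folds of at most 5.18. Nothing new appeared: all 60 KD regions of the 3 marks in these windows overlapped a control region of the same mark, as did 93.1% of all KD H3K4me1 islands, 92.7% of KD H3K4me2 peaks and 97.3% of KD H3K4me3 peaks.

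Beyond the promoters, 14 distal H3K4me2 peaks of control cells lay in the windows, of which 5 overlapped a lens peak (35.7%, Wilson interval 16.3 to 61.2%), against 21.0% of 30312 distal peaks in the windows of all protein-coding genes. Of the 14, 3 lay within 2 kb of starts of non-coding genes and all 3 were shared, so that without them 2 of 11 were (18.2%). The 21.0% was not recounted without such peaks, so it is no like comparison for the 18.2%. All 16 control peaks at the members' own promoters overlapped a lens peak, and 8 of 11 (72.7%) at promoters of neighbouring genes did. Both groups together compare with 88.8% of 20894 promoter peaks in the windows of all genes.

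The site upstream of Kdm5b was the clearest distal one. At chr1:136452716-136454259, with its summit at -3.50 kb from the marked start and between genes, control cells had an H3K4me2 peak of 1544 bp with fold 15.0 at percentile 80.4. Pol2 was listed on it with fold 16.4 at percentile 75.3, above the 52.5 of the Kdm5b promoter itself. No H3K4me3 peak and no annotated start lay on it. In KD cells H3K4me2 was present as 2 peaks of 862 and 504 bp, the stronger at percentile 79.2. In lens it was a single peak of 2142 bp with fold 25.3 at percentile 89.9, above the Kdm5b promoter peak of the same list. The H3K4me1 island on it held 37 reads in control cells and had no KD partner. The 200 bases around its Pol2 summit are printed, plus strand, with CpGs in capitals.
Kdm5b upstream site (chr1:136453369-136453568): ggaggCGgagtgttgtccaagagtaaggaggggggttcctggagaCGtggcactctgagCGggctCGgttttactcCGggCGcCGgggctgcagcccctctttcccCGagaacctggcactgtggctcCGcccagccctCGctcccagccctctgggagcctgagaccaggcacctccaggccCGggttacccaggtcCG
This stretch held 12 CpGs, an observed over expected ratio of 0.512 over its 200 bases. The whole Pol2 peak of 690 bp held GGGCGG 5 times and CCAAT once, and none of the other words.

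The strongest distal peak of the Wdr5 window lay at its far end. At chr2:27395859-27397389, 25.6 kb beyond the Wdr5 start, the control H3K4me2 peak had a fold of 33.9, the highest of all 66274 peaks of that list. It was at percentile 99.9 or above in KD cells as well, with fold 39.2, and within a peak of fold 25.6 at percentile 90.6 in lens. H3K4me3 (fold 13.2) and Pol2 (fold 19.8) were on it too. The lincRNA Gm13421 and the small nuclear RNA gene U6atac start there, 25.3 and 24.8 kb from the Wdr5 start, so the site is a promoter of non-coding genes. An H3K4me1 island of 35 reads overlapping the peak and one of 45 reads beside it had no KD partner.

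Kdm1a had an intronic site 7.67 kb downstream of its marked start, with H3K4me2 of 478 bp and fold 4.95 in control and 416 bp and fold 4.87 in KD cells. The H3K4me1 island on it had a fold of 7.74, at percentile 97.9 of the control list, from 40 ChIP reads. It was absent from the KD list and no H3K4me2 peak lay there in lens. It had the highest fold of the 25 islands.

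A further distal peak of the Wdr5 window, not the strongest there, lay in an intron of Brd3 (chr2:27351577-27353047). It was at percentile 67.3 in control, 34.7 in KD and 76.1 in lens, with a weak Pol2 peak at percentile 3.58. In the windows of Dpy30, Ncoa6, Kdm1a and Kdm5a the strongest distal peaks were at percentile 50.1 or less. That of the Dpy30 window (fold 6.95, in an intron of Memo1) was kept in KD cells with fold 10.1 and had no lens peak. That of Ncoa6, 29.8 kb into the gene (fold 3.80), was in neither the KD nor the lens list. That of Kdm5a, 89.5 kb from its start (fold 4.72), was kept in KD cells and absent in lens. Ash2l, Rbbp5 and Paxip1 had no distal H3K4me2 peak in control cells.

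Both of the following sites were chosen after their values were seen and are given as a description. At the start of the lincRNA Gm3834, 86.3 kb from the Kdm5b start, lens had a peak at percentile 69.2 (fold 14.2) where control cells had one at 34.1 (fold 5.18) and KD cells none. At Il17ra, a cytokine receptor gene 99.1 kb from the Kdm5a start, lens had a peak at percentile 65.9 (fold 12.1) and control cells one at 3.97 (fold 3.25), and KD cells again had none. The median change in promoter H3K4me2 rank from control cells to lens was -4.10 percentile points over the 9 genes and -0.0692 over 12309 genes.

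None of the 9 windows held a Pax6 peak, against 2.09% of all genes, so the count of 0 of 9 is near the background and is no result about these genes. The nearest Pax6 peak lay 131 kb from Kdm1a, 196 kb from Wdr5, 305 kb from Dpy30, 391 kb from Kdm5a and 713 kb from Ncoa6, and at least 3986 kb from the other 4. The list holds 504 Pax6 peaks of control cells, so weaker binding would not be in it.

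The other genes of the pathway were counted in the same way. The list of 18 comprised the methyltransferases Kmt2a, Kmt2b, Kmt2c, Kmt2d, Setd1a and Setd1b, their partners Men1, Psip1, Hcfc1, Cxxc1, Wdr82, Kdm6a, Pagr1a, Bod1 and Paxbp1, and the demethylase side with Kdm1b, Kdm5c and Rcor1. All 18 had Pol2, H3K4me3 and H3K4me2 at the promoter in control cells, all 18 had both marks in KD cells and H3K4me2 in lens, and 0 had a Pax6 peak in the window. H3K4me1 was at the promoter of 8 in control cells and of 2 in KD cells, where 36.0% and 16.8% of all genes had it. Kmt2b, Kmt2c, Kmt2d, Setd1a, Hcfc1 and Rcor1 had it in control cells only, and Men1 and Pagr1a in both. The covered length of H3K4me1 in the window was at least 2-fold lower in KD cells for 11 of the 13 genes that had any, against 54.4% of all genes, and 0 for 6. The exceptions were Pagr1a, which kept 70% of its covered length, and Psip1, which had 5217 bp in control and 6617 bp in KD cells. The other 5 genes had no island in either list. The counts of this list and those of the 9 genes come from the same libraries and are no independent support for each other.

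Across all promoters, marker genes bore on what the libraries contain. Of 8 lens genes, 6 had H3K4me2 at the promoter in control cells (not Foxe3 and Mip) and 8 in lens. Of 3 vessel genes, 2 had it in each, Cdh5 lacking it in control cells and Pecam1 in lens, and Ptprc, the blood gene found in the annotation, had it in neither. What part of the lens values at the 9 genes comes from other cell types was not tested.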

How the data were processed

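ChIP-seq libraries of αTN4 cells (control shRNA and Pax6 shRNA) and of newborn lens were used as the lists of regions the authors made, 1 library per condition. The 2 input libraries and 4 RNA-seq libraries were mapped to their groups and not analysed here. The antibody fields of the Pax6 and Pol2 libraries are exchanged relative to their titles and source names; both were assigned by title.

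Per the study's methods, reads were mapped by Bowtie on the mm9 genome. MACS2 gave the peaks of Pax6, Pol2, H3K4me2 and H3K4me3, and SICER gave the H3K4me1 islands. For each MACS2 peak the authors deposited the fold enrichment as a ratio over background, the −log10 of the p-value and q-value, and a score. For each SICER island they deposited the count of ChIP reads, the count of reads of a control library that the files do not name (taken to be input), the fold, the p-value and the FDR. Peak names of the control H3K4me2 list hold the word bothreps, so that list may pool replicates. The peak lists hold no read totals, so their depth is unknown.

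Regions were used as deposited. Genes, starts and exons came from GENCODE vM1 (22342 protein-coding genes on chromosomes 1 to 19 and X), and bases from the mm9 genome, within whose chromosome lengths all regions on these chromosomes lie. A region was kept when it shared at least 1 bp with a KD region of the same mark. The result of 1 marker list is not reported here. Without replicates no test was made, and shares are set beside the same share over all genes or regions. Intervals are 95% Wilson intervals. The members, gene lists and thresholds were chosen with earlier results of these data known; the Pol2 summit gaps, the CpG measure, the classes of ChIP reads and the look at non-coding starts were added after seeing the values. All 9 genes are described, and pathway genes are named where a promoter mark differs in presence between control and KD cells. Distal sites are named where they are the strongest H3K4me2 peak of a window. The Brd3 intron peak and the Gm3834 and Il17ra sites fall outside this rule. Scripts used Python 3.11.15, pandas and NumPy and were tested on simulated data.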

Additional observations from a re-analysis of the deposited data

How the results depend on the processing

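The 17 counts, shares and medians were recomputed 61 times under other settings: promoters of 1 kb, only the 5′-most start, overlap of at least 200 bp or of 50% of the control region, windows of 10 and 50 kb, a stricter threshold (−log10 q of at least 5, FDR of at most 1e-06), other measures of rank and read density, and, chosen after seeing the data, leaving out distal peaks near non-coding starts. All 61 stayed within 1.5 times the count, within the Wilson interval of the share, or within 1 SD of the median. The SD was taken over the members, or over the islands for read density. These limits were wide enough for a median to change sign and still stay within them. With only the 5′-most start, 7 in place of 9 promoters carried Pol2, H3K4me2 and H3K4me3, and 35% in place of 20% of H3K4me1 islands were kept with windows of 50 kb. The share of distal H3K4me2 peaks found in lens ran from 18.2% without non-coding starts to 50% at the stricter threshold. The median rank changes of promoter H3K4me3 and H3K4me2 between control and KD cells took the other sign by −log10 q (-1.92 and -0.323), and H3K4me2 also with the widest peak (-1.07), all well within the spread over the 9 genes. No replicate can be left out, since each condition has 1 library. No paired analysis was possible because each condition has 1 library.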
